A study of Homo sapiens with 15 samples.

Results

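WT HaCaT keratinocytes treated with mepazine were compared with WT cells given vehicle, which used 6 of the 15 libraries of the series. HaCaT is a spontaneously immortalised human keratinocyte line. The WT cells carried the wild-type sequence on both copies of CARD14, the gene that was changed by CRISPR in the other lines of the series. They received either the solvent DMSO alone or 10 µM mepazine, each for 24 h, and each group had 3 libraries, lettered a, b and c. R820W cells, with that substitution in both copies of CARD14, had received the same treatments in 6 further libraries, and the knockout cells (KO) vehicle only in 3. The series describes separate experiments, but whether a letter stands for one of them, and how many clones made up a genotype, is not in the labels. Every gene past an expression filter was taken as a member, 14971 of 28518 symbols. Values are CPM, a count divided by the scaled size of its library. Each log2 fold change is of mepazine against vehicle, with its SE after the ± sign. The test was edgeR's quasi-likelihood F-test, and p was adjusted by Benjamini-Hochberg across every gene that entered the fit. "Rose" and "fell" are used of genes with an adjusted p under 0.05.

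MALT1 is a paracaspase that works in a complex with a CARD scaffold and the adaptor BCL10. CARD14 is a scaffold of keratinocytes. The complex recruits ubiquitin ligases that switch on the IKK kinases and NF-kB, and MALT1 also cleaves a few proteins, among them the NF-kB inhibitor A20, encoded by TNFAIP3. Mepazine is a phenothiazine that inhibits MALT1, and phenothiazines as a class are cationic amphiphilic drugs, which are known to collect in acidic organelles. Cells sense their sterol supply through SCAP and SREBP-2, which drives the genes of cholesterol synthesis. The MiT/TFE transcription factors, held in check by folliculin, the Rag GTPases and mTORC1, drive genes of the lysosome and of autophagy.

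The 6 WT libraries held 21450115 to 26724380 counts, so that 3 counts stood for 0.112 to 0.14 CPM. Keratinocyte markers summed to 6476 to 6826 CPM of all counts with vehicle and 5920.2 to 6589 with mepazine, and all 13 were detected. Fibroblast markers summed to 26.7 to 27 and 35.9 to 40.3 CPM (THY1 and DPT at 0), and endothelial markers to 4.43 to 6.9 and 10.6 to 13.5 (TIE1 at 0), most of it CDH5. The part of these markers in the results was not tested, and in bulk RNA fewer cells of a type and less RNA per cell cannot be told apart. Melanocyte and leukocyte markers stayed at or under 2.12 CPM in every library, with TYR, DCT, CD3E and CD3D at 0. Within the 6 libraries the first principal component of 1000 genes held 30.2% of the variance and separated the treatments, and the second, with 21.4%, set mepazine library b apart from mepazine library c.

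With mepazine, the enzymes of cholesterol synthesis, many lysosomal genes, GPNMB and the autophagy receptor SQSTM1 rose. The cytokines IL8, IL1A and IL1B, ligands of the EGF receptor, the keratin KRT6A, MYC and most genes of ribosome biogenesis fell. Of the genes tested, 3588 passed (24.0%), 1855 higher (12.4%) and 1733 lower (11.6%). The median log2 fold change was 0.32 among genes that rose and -0.22 among genes that fell, and 82.6% of all those called moved by under 0.5 on the log2 scale. Changes of at least 2-fold were mostly increases, 116 genes higher (0.775%) and 27 lower (0.18%). Over all genes tested the median was 0.02. The count of 1855 increases came to 1235 without WT_vehicle a and to 1222 without WT_mepazine a. Values of the 3 libraries of a treatment did not overlap those of the other for 40.2% of genes tested.

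**Figure D1:**
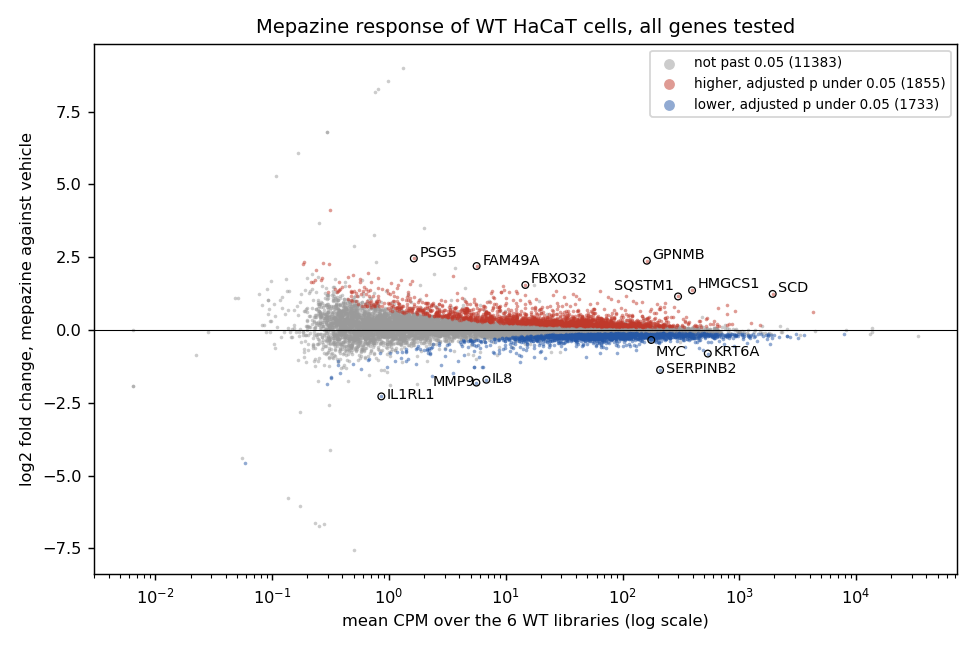
Each point is 1 of the 14971 genes, with its mean CPM over the 6 WT libraries on a log axis and its log2 fold change with mepazine. Red and blue points passed at an adjusted p under 0.05, 1855 higher and 1733 lower. GPNMB, at 2.38, lies highest among genes above 10 CPM, and the scatter is widest for genes under 1 CPM.

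Mepazine is named in the series as an inhibitor of MALT1, so the genes of that pathway are given first. The transcripts of the 3 complex members did not pass. CARD14 was found at low level, at 1.67, 1.13 and 1.76 CPM in the vehicle libraries a, b and c and 1.29, 1.55 and 1.56 CPM with mepazine, and the groups overlapped (log2 fold change -0.06 ± 0.218, adjusted p = 0.874). BCL10 had a log2 fold change of 0.08 ± 0.0505 (adjusted p = 0.297) and MALT1 one of -0.11 ± 0.0543 (adjusted p = 0.14). Of the 14 genes of the complex and its partners 1 rose and 3 fell (28.6% called, near the 24.0% over all genes). The increase was TAB3, which links ubiquitin chains to the kinase TAK1 (0.36 ± 0.0464, adjusted p = 1.99e-06). The count of 3 that fell dropped to 1 without WT_mepazine c, and the lowest log2 fold change of the list was -0.20.

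Among 11 known protein substrates of MALT1, the transcripts of TNFAIP3 and RELB fell. TNFAIP3 stood at 62.4, 64.3 and 66.6 CPM with vehicle and 33.1, 37.2 and 30.9 CPM with mepazine, every treated library below every vehicle library (log2 fold change -0.93 ± 0.0706, adjusted p = 7.67e-10). RELB, an NF-kB subunit of the alternative pathway, went from 18.1, 16.7 and 17.1 to 9.89, 12.1 and 11.2 CPM (-0.65 ± 0.0854, adjusted p = 2.44e-06). TAB3 is the substrate that rose. In all, 27.3% of the 11 were called, near the 24.0% over all genes. CYLD, N4BP1, ZC3H12A and RC3H1 had log2 fold changes between -0.06 and 0.04 and did not pass. Cleavage of a protein is not seen at the level of its mRNA.

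NF-kB targets and feedback genes moved both ways, 11 of 29 lower and 7 higher, with a list median of -0.07. TRAF1, a signalling adaptor, fell the furthest, from 8.68, 8.9 and 9.37 to 3.65, 3.74 and 3.77 CPM with no overlap (-1.27 ± 0.112, adjusted p = 3.03e-09). The maturation marker CD83 fell by 0.45, the subunit NFKB2 by 0.38 and the inhibitor NFKBIA by 0.22 on the log2 scale. In the other direction went the subunit REL, at 9.22, 10.7 and 9.52 CPM with vehicle and 12.2, 12.8 and 13.8 with mepazine (0.40 ± 0.0813, adjusted p = 0.000685), the prostaglandin synthase PTGS2 (0.45) and the urokinase PLAU (0.34). RELA and ICAM1 did not pass, at -0.06 and -0.03 with overlapping groups.

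The chemokine genes IL8 and CXCL1 fell. The neutrophil chemokine IL8 stood at 9.92, 10.4 and 11 CPM with vehicle and 2.51, 4.04 and 3.08 CPM with mepazine, and CXCL1, which binds the same receptor, at 8.56, 8.14 and 9.9 and 3.32, 4.38 and 3.22 CPM. In both genes every treated library lay below every vehicle library. Their log2 fold changes were -1.71 ± 0.15 (adjusted p = 1.66e-08) and -1.28 ± 0.13 (adjusted p = 3.64e-08). IL23A, a subunit of the cytokine that sustains Th17 cells, fell by 0.63. CXCL3, CXCL5 and CXCL6, also chemokines of neutrophils, did not pass, with overlapping groups (-0.70 ± 0.409, -0.16 ± 0.201 and -0.33 ± 0.165). IL8, CXCL1 and IL23A were the 3 of 19 tested members of the chemokine and cytokine list that fell. That is 15.8%, against 11.6% of all genes tested. In either direction 26.3% of the list was called, near the 24.0% over all genes. The 2 that rose, CCL2 (0.44) and CCL28 (0.80), both lost their calls without WT_vehicle a or WT_vehicle b, CCL2 also without WT_mepazine b and CCL28 also without WT_mepazine c (log2 fold changes of 0.34 to 0.59 and 0.60 to 0.96 with 1 library left out). Of 30 entries 11 were not tested, being below the filter.

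Both IL-1 cytokines fell while their antagonist rose. IL1A went from 28.2, 28.4 and 29.3 to 14.4, 17.6 and 12.4 CPM (-0.95 ± 0.109, adjusted p = 3.39e-06) and IL1B from 39.3, 38.6 and 39.5 to 25.3, 27 and 22.1 CPM (-0.65 ± 0.0656, adjusted p = 3.10e-08). IL1RN, the receptor antagonist, rose from 43.3, 45.1 and 49.3 to 62.2, 63.4 and 69.6 CPM (0.50 ± 0.0617, adjusted p = 9.09e-07). None of these groups overlapped. The signalling receptor IL1R1 fell by 0.31, and 2 receptors of low level also fell, the decoy IL1R2 (-1.26 ± 0.28, at most 1.67 CPM in any WT library) and the IL-33 receptor IL1RL1 (-2.28 ± 0.319). IL1RL1 stood at 1.28, 1.69 and 1.33 CPM with vehicle and 0.332, 0.387 and 0.138 CPM with mepazine, where the lowest value came from 3 counts. In all, 5 of 11 tested genes of the family fell and 1 rose, or 2 without WT_vehicle b. IL32, a cytokine outside these lists, fell from 8.56, 6.83 and 7.04 to 3.21, 3.18 and 3.03 CPM, and the receptor IL6R rose from 4.18, 3.91 and 4.85 to 10.3, 11.9 and 10.4 CPM.

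Promoter stretches of IL8, CXCL1 and TNFAIP3, which fell, are shown because they hold the letters GGNNTTTCC, a core NF-kB motif. The bases are the 150 directly before the start in RefSeq (GRCh38.p14, plus strand), with each match on either strand in capitals.
IL8 (CXCL8 in RefSeq), chr4:73740419-73740568: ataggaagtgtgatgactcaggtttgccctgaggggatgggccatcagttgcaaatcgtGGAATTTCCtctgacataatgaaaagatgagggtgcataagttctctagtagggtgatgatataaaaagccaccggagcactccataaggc
CXCL1, chr4:73869243-73869392: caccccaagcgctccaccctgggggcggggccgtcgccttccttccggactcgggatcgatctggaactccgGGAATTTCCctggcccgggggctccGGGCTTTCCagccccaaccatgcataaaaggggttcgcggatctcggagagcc
TNFAIP3, chr6:137867109-137867258: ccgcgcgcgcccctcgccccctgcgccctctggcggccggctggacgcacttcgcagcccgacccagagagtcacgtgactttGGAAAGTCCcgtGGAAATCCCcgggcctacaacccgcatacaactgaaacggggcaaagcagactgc
Windows from 250 bases before to 50 after the start were searched, over all starts listed for a symbol. The motif was present for 15 of 27 genes of the NF-kB list with a window and for 7.61% of all symbols. Of those 15 genes 7 fell, 3 rose and 5 did not pass or were not tested. In the chemokine and cytokine list, to which IL8 and CXCL1 belong, 11 of 22 held it, of which 2 fell, 0 rose and 9 did not pass or were not tested. A match describes letters only.

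Several ligands of the EGF receptor, growth factors that keratinocytes make for themselves, fell. Of 14 tested genes of the list 6 fell and none rose in edgeR's test, with a median of -0.38. DESeq2 and limma-voom also gave 0 increases, and 1 was higher at an unadjusted p under 0.05. Amphiregulin, AREG, stood at 18.1, 16.6 and 19.3 CPM with vehicle and 8.34, 8.59 and 8.51 CPM with mepazine, and epiregulin, EREG, at 22.1, 23.5 and 22.7 and 11.5, 13.4 and 11.2 CPM. In every treated library both were lower than in every vehicle library (log2 fold changes -1.09 ± 0.0855, adjusted p = 3.31e-10, and -0.92 ± 0.0866, adjusted p = 9.56e-09). HBEGF fell by 0.68, TGFA by 0.58 and NRG1, a ligand of ERBB3 and ERBB4, by 0.56. The receptor EGFR itself stood at 323, 320.2 and 314 and 343, 337 and 343 CPM and did not pass (0.10 ± 0.0461, adjusted p = 0.139). The feedback inhibitor of the receptor, ERRFI1, fell by 0.52.

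ERK output genes fell at 8 of 22 and rose at 1, an increase lost without WT_vehicle a. The phosphatase DUSP4 fell by 0.36, while the ETS factor ETV5 did not pass (-0.12). FOSL1, an AP-1 subunit of proliferating and migrating keratinocytes, went from 166, 159.7 and 156 to 97.1, 106 and 97.3 CPM (-0.68 ± 0.0445, adjusted p = 6.79e-12), and its values did not overlap. FOS did not pass (0.21 ± 0.146).

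Genes of matrix breakdown and fibrinolysis fell at 9 of 22 and rose at 3. MMP9, gelatinase B, stood at 9.68, 7.44 and 8.99 CPM with vehicle and 2.14, 2.53 and 2.85 CPM with mepazine (-1.81 ± 0.133, adjusted p = 8.62e-11). SERPINB2, an inhibitor of plasminogen activators, went from 299.6, 299 and 309 to 109.6, 129.7 and 111 CPM (-1.37 ± 0.0592, adjusted p = 6.00e-14), the smallest adjusted p among decreases. The urokinase receptor PLAUR fell by 0.57. TIMP2, an inhibitor of metalloproteases, rose from 25.3, 25.7 and 26.2 to 44.5, 43.5 and 48.3 CPM (0.82 ± 0.0634, adjusted p = 2.49e-10). PTHLH, the parathyroid hormone-related peptide that keratinocytes secrete, fell by 0.63.

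**Figure D2:**
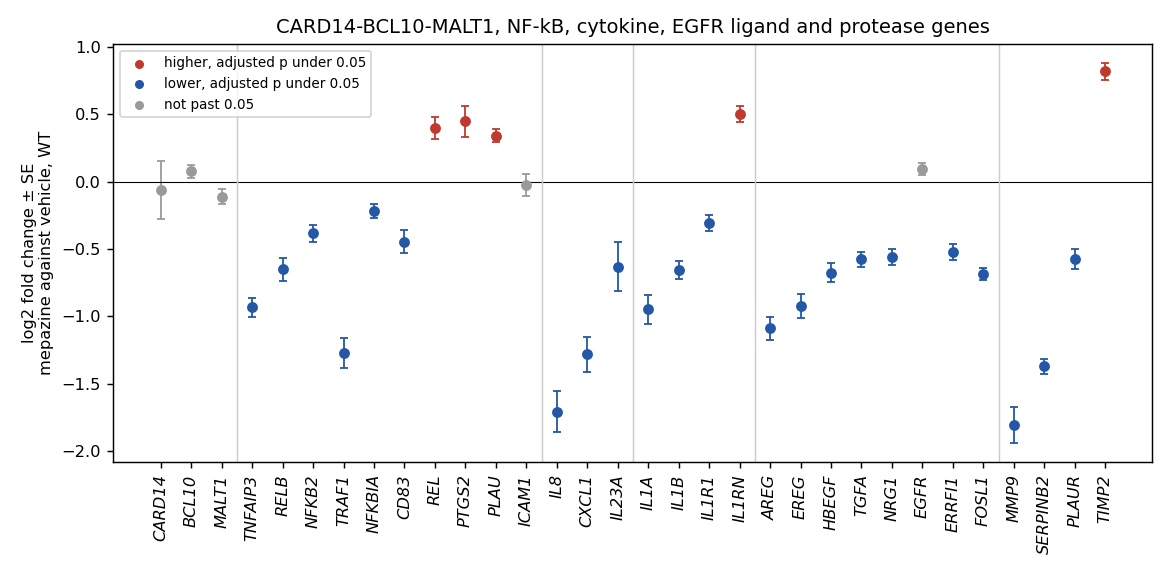
Points are log2 fold changes with mepazine in WT cells and bars their SE, for genes of the complex, NF-kB, chemokine, IL-1, EGF receptor and protease groups, divided by grey lines. IL8 (-1.71), IL1A (-0.95) and AREG (-1.09) lie well below 0, IL1RN (0.50) above it, and CARD14, BCL10, MALT1, ICAM1 and EGFR, in grey, close to it.

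Cholesterol synthesis was the list with the largest share of members that rose. Of 20 enzymes 19 rose and none fell (adjusted p under 0.05 in edgeR), with a median log2 fold change of 0.79, and the count was 19 in every alternative fit. No enzyme was lower by DESeq2, by limma-voom or at an unadjusted p under 0.05, and the same held of the LXR targets and lysosomal membrane proteins given next. HMGCS1, which makes the HMG-CoA of the pathway, stood at 211, 228 and 223 CPM with vehicle and 566, 585 and 551 CPM with mepazine (1.36 ± 0.053, adjusted p = 5.71e-16). Mevalonate decarboxylase, MVD, went from 45.7, 44.6 and 50.2 to 102, 100.1 and 108 CPM and squalene synthase, FDFT1, from 162, 154 and 164 to 306, 300.2 and 312 CPM. In all 3 genes every treated library lay above every vehicle library. The log2 fold changes of ACAT2, FDPS and SQLE were 1.01, 0.91 and 0.78. PMVK was the enzyme that did not pass (0.15 ± 0.0771, adjusted p = 0.162).

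Genes that sense and take up sterols followed, 11 of 14 tested higher and 1 lower. INSIG1, the retention protein of SCAP and itself an SREBP target, rose from 59.5, 69 and 69.5 to 145, 149.8 and 154 CPM (1.18 ± 0.0548, adjusted p = 1.17e-14). SREBF2, which encodes SREBP-2, rose by a log2 fold change of 0.65. NPC1 and NPC2, which pass cholesterol out of the lysosome, rose by 0.32 and 0.57. The HDL receptor SCARB1 was the member that fell (-0.17), a call lost without WT_vehicle a, WT_mepazine b, WT_vehicle c or WT_mepazine c (-0.19 to -0.14 with 1 library left out). LXR targets and efflux genes rose at 4 of 9, none fell, and 2 of the 4, SCD and SREBF1, also belong to fatty acid synthesis. MYLIP, a ubiquitin ligase and LXR target, rose by 0.38, and the exporter ABCG1 did not pass (-0.19 ± 0.28).

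Fatty acid genes rose at 13 of 20 and fell at 1, a decrease lost without WT_vehicle c. SCD, the stearoyl-CoA desaturase, was the most abundant of the strong responders, at 1110.5, 1175 and 1163 CPM with vehicle and 2704, 2642 and 2793 CPM with mepazine (1.24 ± 0.0434, adjusted p = 3.06e-17). The desaturases FADS1 and FADS2 rose by 0.77 and 0.90, fatty acid synthase FASN by 0.64, the acyl-CoA synthetase ACSL1 by 0.66 and SREBF1, which encodes SREBP-1, by 0.72.

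The promoter of SREBF2 is shown because SREBP-2 drives its own gene and the stretch holds TCACNCCAC, the sterol regulatory element in this form (RefSeq, GRCh38.p14, plus strand, 150 bases before the start, match in capitals).
SREBF2, chr22:41832955-41833104: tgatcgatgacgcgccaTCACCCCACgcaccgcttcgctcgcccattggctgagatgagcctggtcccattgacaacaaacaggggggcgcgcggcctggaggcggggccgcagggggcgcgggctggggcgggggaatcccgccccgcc
Windows of 1.39% of all symbols held it on either strand. It was found for none of the 15 cholesterol enzymes with a window, for SREBF2 among 13 sensing and uptake genes, and for ACSL1 among 21 fatty acid genes.

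**Figure D3:**
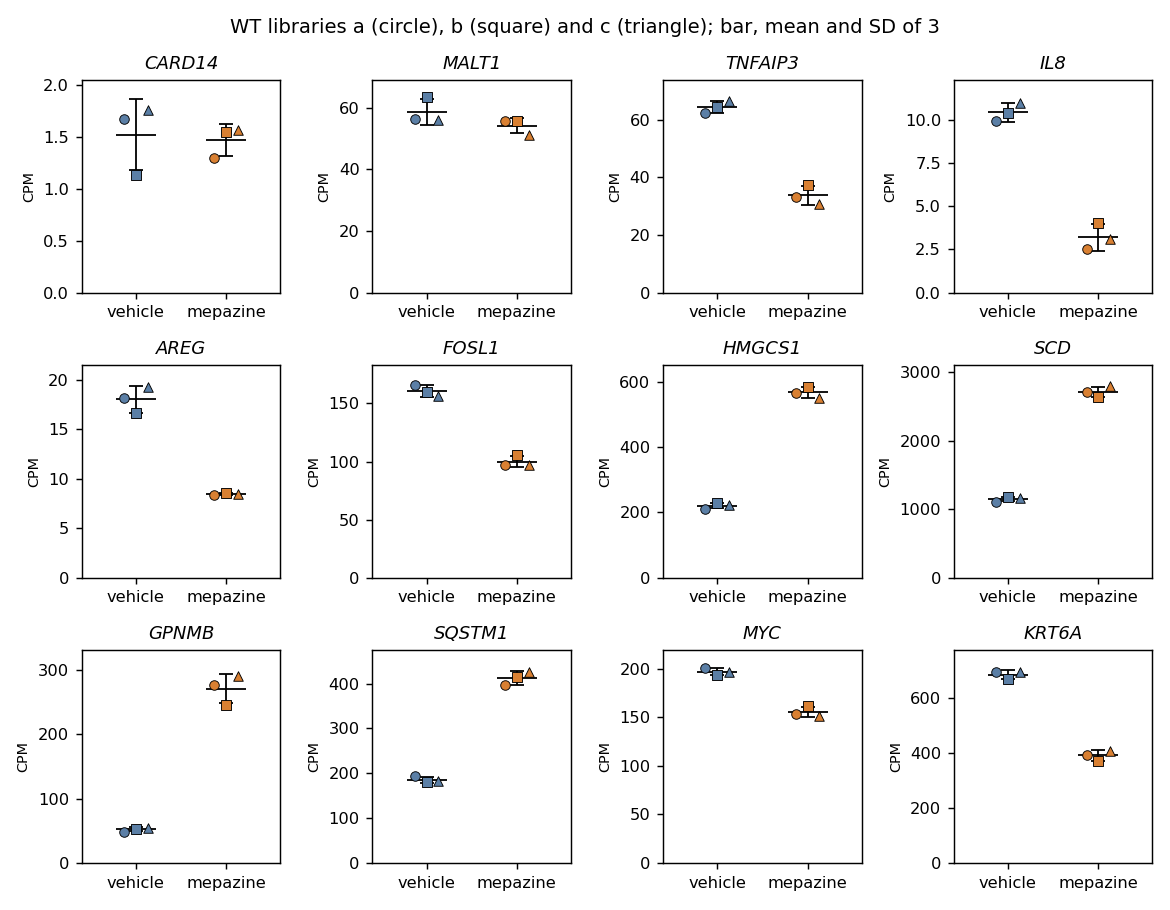
CPM of 12 genes in each WT library, on axes that start at 0, with the mean and SD of the 3 libraries of a treatment. The treatments do not overlap for 10 of them, from IL8 (9.92, 10.4 and 11 against 2.51, 4.04 and 3.08 CPM) to SCD (1110.5, 1175 and 1163 against 2704, 2642 and 2793 CPM), nor for MALT1, which did not pass; CARD14 overlaps.

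Many lysosomal genes rose, most by less than the sterol enzymes. Of 41 tested hydrolases 21 rose and 2 fell (median 0.21), of 26 membrane proteins 15 rose and none fell (median 0.22), and of 19 subunits of the proton pump 10 rose and none fell (median 0.16). With 1 library left out the pump count was 7 to 10, and 1 subunit fell without WT_vehicle b or WT_mepazine c. The 2 hydrolases that fell came to 1 without WT_vehicle a or WT_mepazine b. The sialidase NEU1 moved the furthest of the hydrolases, from 16.3, 14.2 and 15.7 to 37.2, 33.1 and 36.5 CPM (1.21 ± 0.0665, adjusted p = 2.09e-13). TPP1, a peptidase, rose by 0.66, CTSA, which protects NEU1, by 0.48 and the alpha-glucosidase GAA by 0.46. The abundant protease CTSD did not pass (0.19 ± 0.0764, adjusted p = 0.0941). Among membrane proteins the chloride exchanger CLCN7 rose by 0.47 and LAMP1 by 0.23, and among pump subunits ATP6V1C1 rose by 0.43, ATP6AP1 by 0.30 and ATP6V0D1 by 0.26.

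GPNMB, a lysosomal glycoprotein and known target of the MiT/TFE factors, rose the most among called genes with a mean above 10 CPM in either group, from 48.8, 52.8 and 54.8 to 276, 246 and 291 CPM (2.38 ± 0.0759, adjusted p = 2.43e-13). The genes of the folliculin complex also rose, FLCN from 20.1, 22.3 and 22.5 to 39.6, 38.3 and 37.8 CPM (0.84 ± 0.0665), FNIP1 by 0.91 and FNIP2 by 0.97. RRAGC, a Rag GTPase, rose by 0.71. TFEB and TFE3, the factors themselves, did not pass, with overlapping groups (adjusted p = 0.999 and 0.953). Of 15 tested genes of this list 8 rose and 1, MITF, fell (-0.30), and this last call was lost without WT_vehicle a or WT_mepazine c (-0.33 to -0.27 with 1 library left out).

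Of 31 autophagy genes 12 rose and 2 fell, the latter 1 without WT_vehicle a. The receptor SQSTM1, also called p62, shared the smallest adjusted p of the whole comparison with SCD, going from 193, 181 and 183 to 396, 416 and 425 CPM (1.15 ± 0.0409, adjusted p = 3.06e-17). GABARAPL1, an ATG8 protein of the autophagosome, rose from 25.4, 25.2 and 23.6 to 38.9, 37.5 and 38 CPM (0.62 ± 0.0735, adjusted p = 5.42e-07), and the receptor OPTN by 0.41. UAP1L1, outside the lists, was among the 10 increases with the smallest adjusted p, at 23.7, 21.7 and 22.2 and 51.9, 54.2 and 52.5 CPM.

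The promoters of 2 lysosomal genes that rose are shown for the letters TCACGTGA, the CLEAR element bound by MiT/TFE factors, in capitals (RefSeq, GRCh38.p14, plus strand, 150 bases before the start).
GAA, chr17:80101431-80101580: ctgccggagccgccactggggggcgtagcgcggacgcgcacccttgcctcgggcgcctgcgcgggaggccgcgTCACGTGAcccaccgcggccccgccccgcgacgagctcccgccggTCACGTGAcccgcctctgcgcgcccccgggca
LAMP1, chr13:113297089-113297238: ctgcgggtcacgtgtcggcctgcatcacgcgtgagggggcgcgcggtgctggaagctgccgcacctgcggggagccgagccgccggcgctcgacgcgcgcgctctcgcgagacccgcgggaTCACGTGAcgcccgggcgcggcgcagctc
The motif was present for 11 of 62 hydrolase, membrane protein and pump genes with a window, against 1.18% of all symbols. All 11 rose in WT cells, MCOLN1 with a call that several alternatives lost. In the same lists 21 of 41 hydrolases, 15 of 26 membrane proteins and 10 of 19 pump subunits rose, against 12.4% of all genes tested. RRAGB and ATG3, of the MiT/TFE and autophagy lists, held the motif and did not pass. The TNFAIP3 stretch shown earlier also holds it, in lower case, and TNFAIP3 fell. It contains CACGTG, the E-box sought below.

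**Figure D4:**
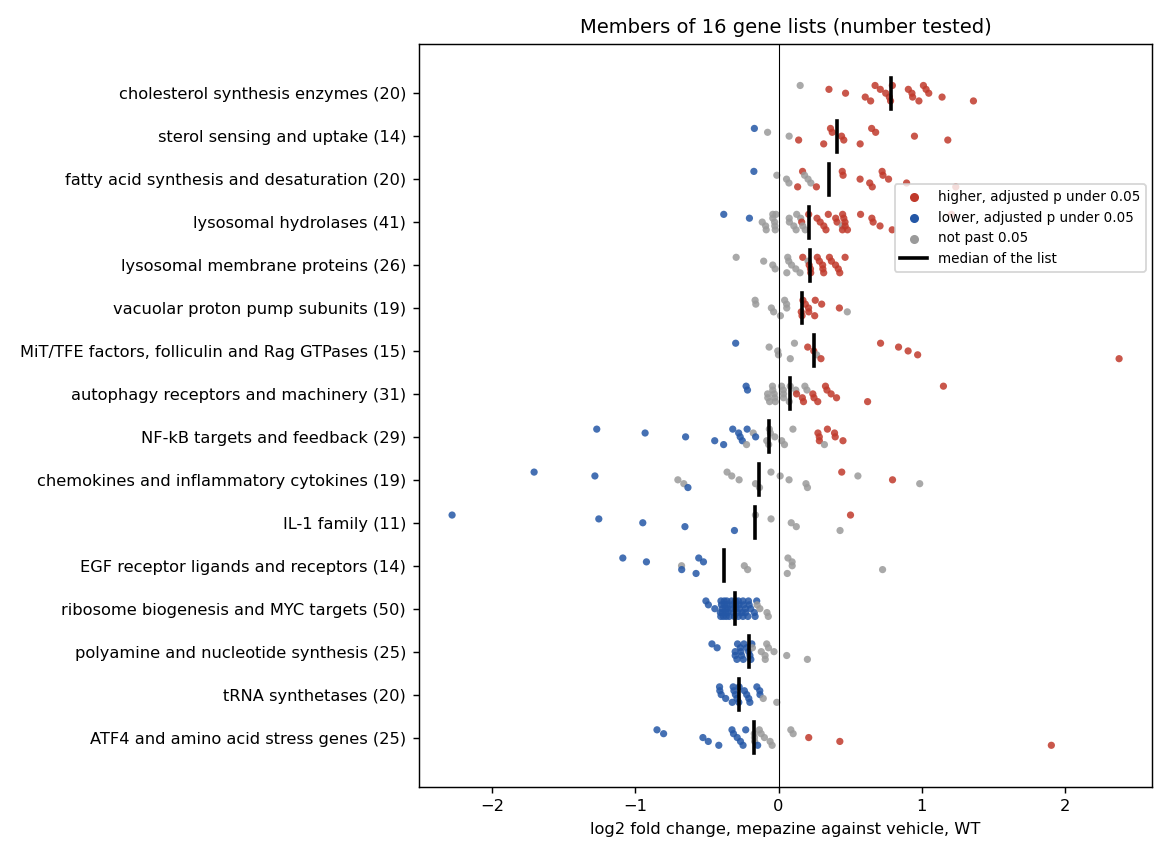
Each point is 1 tested gene of a list, placed by its log2 fold change with mepazine in WT cells, with the list's median as a black bar and the number tested in parentheses. The cholesterol enzymes (0.79) and the ribosome biogenesis genes (-0.30) lie almost wholly on opposite sides of 0, and the NF-kB list spreads over both.

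Growth genes fell by small amounts. MYC, the transcription factor of growth named in the title of the series, stood at 201, 193 and 197 CPM with vehicle and 153, 161 and 152 CPM with mepazine, without overlap (-0.34 ± 0.0389, adjusted p = 2.32e-07). Of 50 ribosome biogenesis genes, many of them known MYC targets, 46 fell and none rose, with a median of -0.30. NOP56, a box C/D ribonucleoprotein, went from 511, 495 and 471 to 379.8, 384 and 352 CPM (-0.40 ± 0.0412, adjusted p = 4.15e-08). BOP1, LYAR, DKC1 (the pseudouridine synthase), NPM1 and NCL had log2 fold changes of -0.51, -0.49, -0.38, -0.38 and -0.28. The E-box CACGTG was found in windows of 19 of 42 genes of the list, against 8.77% of all symbols. Of those 19 genes 18 fell and 1 did not pass, in a list where 46 of 50 fell.

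Polyamine and nucleotide synthesis genes fell at 16 of 25 and rose at none. Ornithine decarboxylase, ODC1, went from 175, 178 and 172 to 129, 139 and 123 CPM (-0.43 ± 0.0453, adjusted p = 7.46e-08), and spermidine synthase, SRM, fell by 0.47. Cytosolic ribosomal protein genes fell at 40 of 58 and rose at none, by at most 0.29 (RPL14), and the count was 23 without WT_vehicle a. Many of these genes have processed pseudogenes with which reads can be shared. In these 3 lists and the tRNA synthetases below, DESeq2 and limma-voom also gave 0 increases. At an unadjusted p under 0.05 the count was 1 for the polyamine and nucleotide list and 0 for the other 3.

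Many genes of amino acid supply fell. Of 20 cytosolic tRNA synthetases 18 fell (median -0.28), among them GARS, YARS and MARS at -0.40, -0.41 and -0.41. The ATF4 list, which responds to amino acid shortage and ER stress, fell at 12 of 25 and rose at 3. Asparagine synthetase, ASNS, stood at 85.6, 84.6 and 72.7 and 44.6, 52.4 and 42.3 CPM (-0.80 ± 0.0817, adjusted p = 1.36e-06), and CHAC1, which degrades glutathione, at 17, 16.4 and 16.9 and 9.44, 10.5 and 7.91 CPM (-0.85 ± 0.108, adjusted p = 2.12e-06). ATF4 fell by 0.25. Against this direction DDIT3, the stress factor CHOP, rose from 7.71, 6.31 and 6.33 to 9.37, 8.8 and 9.33 CPM (0.43 ± 0.114). The log2 fold changes of the 3 members of the ATF4 list that rose ran from 0.21 to 1.91. The serine and one-carbon genes PSAT1, MTHFD2 and MTHFD1L fell by 0.58, 0.54 and 0.46, and 9 of 15 genes of that list fell and 2 rose. These 2 increases came to 1 in every fit that left out a WT library other than WT_vehicle b.

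Many chaperone genes fell by small amounts. Of 22 heat shock genes 12 fell and 2 rose, and 7 fell without WT_mepazine c. HSPA8, FKBP4 and HSPD1 had log2 fold changes of -0.28, -0.34 and -0.28. HSPB8, a small heat shock protein of chaperone-assisted autophagy, rose from 1.7, 2.78 and 2.28 to 5.09, 5.11 and 6.07 CPM (1.28 ± 0.154, adjusted p = 6.20e-07). The ER chaperone HSPA5 fell by 0.20, one of 9 of 26 ER genes that fell, a count of 4 without WT_vehicle a and 5 without WT_vehicle c or WT_mepazine c.

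NRF2 pathway genes rose at 16 of 28 and fell at 1. Without WT_mepazine a or WT_mepazine c 10 rose, and without WT_mepazine b 2 fell. The ferritin chains FTH1 and FTL, which store iron, rose from 3407, 3283 and 3473 to 5234, 4813 and 5486 CPM (0.61 ± 0.0642, adjusted p = 8.03e-07) and by 0.64. AKR1C3, an aldo-keto reductase, rose by 1.09 and OSGIN1 by 0.65. NQO1 and TXNRD1, established NRF2 targets, did not pass (-0.04 and 0.12). The ferritin chains have many pseudogenes and AKR1C3 near-identical relatives, so reads can be shared.

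Glycolysis and hypoxia genes were split, 10 of 28 lower and 5 higher. Lactate dehydrogenase LDHA and hexokinase HK2 fell by 0.31 and 0.34, while aldolase C, ALDOC, rose by 1.30. Respiratory chain genes fell at 7 of 39, a count of 4 without WT_vehicle a. None rose in edgeR's test. Those that fell were 17.9% of the list, against 11.6% of all genes tested. In either direction 24.0% of all genes tested were called.

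Of 39 replication and G1/S genes 7 fell and 1 rose (20.5% called), near the 24.0% called over all genes, and of 34 mitotic genes 4 rose and 1 fell (14.7%). The G1/S increase was lost without any 1 WT library except WT_vehicle b, the mitotic increases came to 2 without WT_vehicle a, WT_mepazine a or WT_mepazine c, and 2 mitotic genes fell without WT_vehicle b. DESeq2 called 2 mitotic genes higher and 4 lower, and a fit with the letter as a replicate block 4 higher and 3 lower. MKI67 stood at 923, 969.6 and 873 and 972, 902 and 913 CPM (0.01 ± 0.0463, adjusted p = 0.892). Growth arrest genes rose at 12 of 26 and fell at 1, with 6 higher without WT_vehicle a. The CDK4 inhibitor CDKN2B rose from 8.72, 7.91 and 10.1 to 20.7, 19.6 and 20.9 CPM (1.20 ± 0.103, adjusted p = 1.51e-08), the FOXO target CCNG2 by 0.79 and CDKN1A by 0.30. Targets of p53 moved at 7 of 22 (31.8%, against 24.0% over all genes), with 3 higher and 4 lower. TP53INP1 rose from 0.504, 0.659 and 0.714 to 1.59, 1.07 and 1.93 CPM (1.30 ± 0.298), and MDM2 did not pass (0.08).

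Several keratin genes fell, and adhesion genes went both ways. KRT6A, a keratin of wounded and psoriatic epidermis, stood at 692, 666 and 694 CPM with vehicle and 393, 371 and 408 CPM with mepazine (-0.81 ± 0.0451, adjusted p = 2.43e-13). KRT6C, at lower level, had a log2 fold change of -1.28, and reads of the very similar KRT6A, KRT6B and KRT6C may be split between them. The basal keratin KRT14 fell by 0.46 and KRT17 by 0.41, while KRT5, the partner of KRT14, did not pass (-0.12 ± 0.079). KRT18 and KRT8, keratins of simple epithelium that HaCaT cells also express, fell by 0.56 and 0.48. Of 5 tested markers of simple epithelium 3 fell and 1, another keratin, rose by 0.16. LAMA3 and LAMB3, laminin chains by which basal cells hold to the basement membrane, fell by 0.63 and 0.24. The integrin ITGA6 fell by 0.17. In the other direction, the hemidesmosome linker DST rose by 0.41, the integrin ITGB6 by 0.35, the laminin chain LAMA5 by 0.29 and the collagen chain COL4A5 by 0.24. Over the whole list of hemidesmosome, integrin and basement membrane genes 7 of 22 fell and 7 rose.

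Differentiation genes gave no single direction. IVL, involucrin of the cornified envelope, rose from 8.17, 7.01 and 8.66 to 12.7, 12.3 and 14.4 CPM (0.72 ± 0.0977, adjusted p = 3.73e-06), and 5 of 21 tested genes of its list rose and 2 fell. In either direction 33.3% of the list was called, against 24.0% over all genes. The 2 decreases numbered 0 to 3 with 1 WT library left out, and were 2 in none of those fits. The early differentiation keratins KRT1 and KRT10 did not pass (-0.08 ± 0.457 and 0.03 ± 0.0808). TP63, the master factor of stratified epithelium, rose by 0.21, and GRHL3, a factor of barrier formation, fell by 0.49. Kallikreins and protease control genes fell at 8 of 17, with KLK10 at 159, 154 and 155 and 101, 109.7 and 107 CPM (-0.56 ± 0.0442), and rose at 2; 4 fell without WT_vehicle a. Interferon-stimulated genes rose at 12 of 39 and fell at 2, with 7 higher without WT_mepazine c and 0 to 4 lower with 1 library left out (1 without WT_vehicle a or b, 4 without WT_mepazine a, 0 without WT_mepazine b). TRIM22, GBP1 and STAT2 rose by 1.06, 0.78 and 0.42, and IFIT1 and MX1 did not pass (-0.01 and 0.29).

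Single genes outside these groups rose further. FAM49A, a regulator of actin dynamics, went from 1.55, 1.88 and 2.66 to 8.89, 8.59 and 10.2 CPM (2.20 ± 0.165, adjusted p = 1.64e-09), and FBXO32, the ubiquitin ligase atrogin-1, from 6.74, 8.24 and 7.61 to 22.9, 22.1 and 20.6 CPM (1.55 ± 0.0914, adjusted p = 8.08e-13). PSG5, a glycoprotein of pregnancy whose near-identical relatives can share its reads, rose from 0.581, 0.424 and 0.476 to 2.62, 2.71 and 2.99 CPM (2.46 ± 0.256). The myosin light chain kinase MYLK rose by 1.50, the engulfment adaptor GULP1 by 1.33, proline dehydrogenase PRODH by 1.84 and AHNAK2 by 1.35. BMPER, an extracellular regulator of BMP, fell from 5.58, 5.6 and 4.47 to 1.88, 2.02 and 1.7 CPM (-1.48 ± 0.163, adjusted p = 1.42e-07).

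The response was set against that of R820W cells with a test of the difference. The difference passed for 577 genes (3.85%), 459 with the R820W response below that of WT (3.07%) and 118 with it above (0.788%). Of the 318 that also passed in WT cells, 280 had a larger fold change in the same direction in R820W, 18 a smaller one and 20 one of opposite sign. The count of 577 rests on single libraries: it was 137 without R820W_vehicle b, 159 without WT_mepazine b, 342, 298, 353, 372, 253, 359 and 231 without WT_vehicle a, WT_mepazine a, R820W_mepazine a, WT_vehicle b, WT_vehicle c, R820W_vehicle c and R820W_mepazine c, and 1362 without R820W_mepazine b. The single genes named next as different kept their calls in all 12 fits that left 1 library out.

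Several growth and signalling genes fell less in WT than in R820W cells. MYC fell by 0.34 in WT and 0.69 in R820W (difference -0.34 ± 0.0556, adjusted p = 0.00125). FOSL1 fell by 0.68 and 1.36 (difference -0.67 ± 0.0652, adjusted p = 1.46e-06), and CHAC1 by 0.85 and 2.19 (difference -1.34 ± 0.179, adjusted p = 0.000291). The difference was -0.41 for SRM, -0.37 for ODC1, -0.37 for LYAR, -0.39 for MTHFD1L, -0.42 for HK2 and -0.35 for HSPD1. In the ribosome biogenesis list it passed for 25 of 50 genes, all with R820W below WT. That count was 15 without WT_mepazine a, 10 without WT_mepazine b, 9 without R820W_vehicle b, 13 without WT_vehicle c and 14 without R820W_mepazine c.

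Many cholesterol enzymes rose further in WT cells. The difference passed for 11 of 20, again all with R820W below WT (9 to 12 with 1 library left out), and the list's median was 0.79 in WT and 0.54 in R820W. HMGCS1 rose by 1.36 and 0.87 (difference -0.49 ± 0.0741, adjusted p = 0.000837) and ACAT2 by 1.01 and 0.52 (difference -0.49 ± 0.0687, adjusted p = 0.000325). SQLE, FDFT1 and FDPS had differences of -0.34, -0.30 and -0.29. KRT17, which fell by 0.41 in WT, did not pass in R820W (adjusted p = 0.995), and the difference was 0.41 ± 0.0611 (adjusted p = 0.000837). The calcium channel TRPV6 rose less in WT (0.78 against 1.70, difference 0.92 ± 0.186, adjusted p = 0.00807). For GPNMB and SQSTM1 the differences were 0.05 ± 0.104 and -0.01 ± 0.0572 and did not pass.

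**Figure D5:**
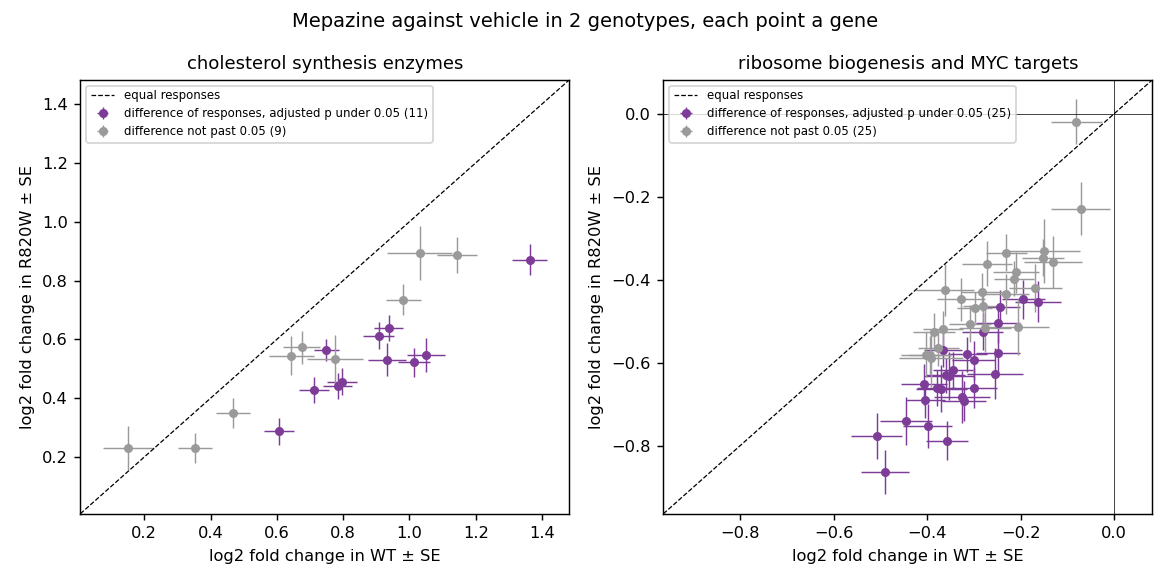
Each point is a gene, with its log2 fold change ± SE in WT cells on the x axis and in R820W cells on the y axis, and purple marks genes whose responses differed at an adjusted p under 0.05. The dashed line marks equal responses. In the cholesterol list 11 and in the ribosome biogenesis list 25 genes are purple, all below the line.

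KO cells were given vehicle only and were compared with the same WT vehicle libraries, so the values stand side by side without a test between them. KO against WT passed for 56 genes (0.374%). MYC differed by -0.01 in KO, TNFAIP3 by 0.11, IL8 by 0.08, HMGCS1 by -0.06 and GPNMB by 0.06 on the log2 scale, and none of these passed. SCD (-0.29, adjusted p = 0.000396), SQSTM1 (0.32, adjusted p = 4.77e-05), FOSL1 (0.21, adjusted p = 0.0168) and PLAU (0.26, adjusted p = 0.00552) did.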

How the data were processed

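Libraries were made with a directional kit from total RNA, per the labels' protocols. The authors deposited raw counts per gene symbol for all 15 libraries. FastQC, DESeq2, MACS2 and hg19 are named in the submitters' processing notes, without roles. The aligner, the counter, the annotation and any use of strand were not given in the sources used here.

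Genes were kept by edgeR's filterByExpr (minimum count 10), scaled by TMM and tested in 1 robust quasi-likelihood fit over all 15 libraries with group as the term (R 4.3.3, edgeR 4.0.16), with p-values adjusted over all genes tested. CPM are on TMM-scaled library sizes, marker sums on all counts. Replicate libraries of WT vehicle and of WT mepazine differed by more than sampling noise. Although the series describes separate experiments, the labels do not say that each library came from its own culture. The p-values measure the spread within groups over all 15 libraries, which may be technical.

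The genes and lists were chosen with earlier results of these data known. Named were the pathway genes CARD14, BCL10, MALT1 and MYC, genes called with the 15 highest or lowest fold changes or 10 smallest adjusted p per direction (no overlap, and 2 CPM or more on average in the higher group), up to 4 per direction of each list by adjusted p, and 6 per direction of the difference from R820W. Other members, such as CTSD, EGFR, NQO1, RELA and all named as not passing, were chosen after their values were seen. Some genes that the rule names are not reported here. Promoters are from RefSeq and were searched on both strands. Alternatives were DESeq2 1.42.0, limma-voom (limma 3.58.1), DESeq2 size factors, other filters, a fit of the compared groups alone, a replicate block and leaving out each library.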

Additional observations from a re-analysis of the deposited data

Results flagged for a closer look

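The mepazine response of WT cells differed from that of R820W cells, by edgeR's test of the difference at an adjusted p under 0.05, for 41 of the 188 genes named in the text. Over all genes tested the difference passed for 3.85%, and the named genes were chosen in part by this difference. Each value is the log2 fold change in R820W minus that in WT. Of the 41 genes, 21 kept the call in all 12 fits that left out 1 library. Genes that rose in WT and had a lower value in R820W were HMGCS1 (-0.49), ACAT2 (-0.49), SQLE (-0.34), FDFT1 (-0.30) and FDPS (-0.29). Genes that fell in WT and had a lower value in R820W were CHAC1 (-1.34), FOSL1 (-0.67), HK2 (-0.42), SRM (-0.41), MTHFD1L (-0.39), LYAR (-0.37), ODC1 (-0.37), HSPD1 (-0.35), MYC (-0.34), HSPA8 (-0.31), NOP56 (-0.29), FKBP4 (-0.29), DKC1 (-0.28) and LDHA (-0.27). A higher value in R820W was found for KRT17 (0.41) and TRPV6 (0.92).

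The other 20 lost the call in 1 to 10 of those 12 fits. Of genes that fell in WT, the cytokine and growth factor genes IL1R2 (-1.60), IL8 (-0.86), IL1A (-0.84), EREG (-0.58), AREG (-0.48), IL1B (-0.44) and TGFA (-0.29) had a lower value in R820W, as did PSAT1 (-0.58), ASNS (-0.53), SCARB1 (-0.30), GARS (-0.29) and BOP1 (-0.27). Of genes that rose in WT, the value was lower in R820W for PTGS2 (-0.67), INSIG1 (-0.33) and FASN (-0.33). It was higher in R820W for LAMB3 (0.28), STAT2 (0.35), GABARAPL1 (0.43), FBXO32 (0.48) and TP53INP1 (1.34).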

How the results depend on the processing

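Of 4516 refits of 348 named genes' fold changes, 199 lost the call and 7 gained one. None of the 317 genes past the threshold changed sign in these refits, and 13 of the 31 that had not passed did in at least 1, CARD14 among them. The 3588 calls stood at 3219 with DESeq2 (3040 shared), 3503 with limma-voom, 3469 with no filter and 4211 with only the groups compared. With 1 library left out they ranged from 2426 to 3109, those higher from 1222 to 1629, those lower from 1191 to 1480 and those of at least 2-fold from 137 to 168. DESeq2 gave 85 of at least 2-fold, and the cause was not tested.

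The genes with a different response in R820W numbered 894 with no filter and ranged from 137 to 1362 with 1 library left out, those below WT 742 and 114 to 1080, and those above WT from 23 to 282. Of 1482 refitted list counts 160 moved by over 1.5 times. Depth limits genes near 1 CPM, such as CARD14, for which small changes were not detectable.

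The letters were not treated as pairs, since the labels do not say whether a letter marks an experiment. Deviations of same-lettered vehicle and mepazine libraries correlated at 0.0441, 0.0835 and 0.039 across genes, under 0.1 each, although every vehicle library correlated best with its own letter, a hint from the data and not from the design. With the letter as a replicate block, calls in WT came to 4267, including 3566 of the 3588. The differences from R820W came to 1401, 1070 below and 331 above WT.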

Other observations

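Targets and partners of the aryl hydrocarbon receptor, a sensor of planar ring compounds, rose at 5 of 11 and fell at none in edgeR's test, by DESeq2, by limma-voom or at an unadjusted p under 0.05, with 3 higher without WT_mepazine a or WT_mepazine c. CYP1A1, its best known target, stood at 4.38, 3.91 and 3.71 CPM with vehicle and 8.12, 6.57 and 6.9 CPM with mepazine (0.85 ± 0.129, edgeR's adjusted p = 2.12e-05), and UGT1A6 rose by 0.43; UGT1A genes share their last exons, so reads can be shared. Phospholipid and sphingolipid enzymes rose at 7 of 24 and fell at 1 (33.3% called, against 24.0% over all genes). LPIN1, a phosphatidate phosphatase, rose by 0.62 and PCYT2, of phosphatidylethanolamine synthesis, by 0.54. The 1 decrease was lost without WT_mepazine a or WT_vehicle b. RNASE7, an antimicrobial ribonuclease of skin, rose from 0.581, 0.753 and 0.476 to 1.33, 2.06 and 2.02 CPM (1.56 ± 0.258). Of the 15 genes of its list 12 did not pass (20% called, against 24.0% over all genes). The 2 that rose came to 1 without WT_vehicle a or WT_mepazine c.

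TGF-beta and mesenchymal genes were split, 8 of 22 lower and 7 higher, with 3 or 4 higher without WT_vehicle a, WT_mepazine a, WT_vehicle b or WT_mepazine c. INHBA, the activin A subunit, went from 10.1, 11.2 and 12.1 to 6.9, 6.4 and 5.98 CPM (-0.78 ± 0.0994, edgeR's adjusted p = 1.44e-06). THBS1 and TGFB1 fell by 0.45 and 0.32. Junction genes also went both ways, 7 of 30 lower and 6 higher: the connexin GJB2 fell from 29.4, 26.5 and 27.6 to 18.1, 20.4 and 17.7 CPM (-0.57 ± 0.0753), GJA1 fell by 0.31, and the desmoglein DSG2 rose by 0.19. The count of 6 was 2 to 5 with 1 library left out. Of 14 Notch genes the ligand JAG1 rose (0.35) and DLL1 fell (-0.29), or 14.3% called against 24.0% over all genes. Among fate factors OVOL1 fell by 0.36 and KLF5 by 0.24, in a list with 6 of 23 lower and 3 higher. Among AP-1 factors JUND rose by 0.40 and EGR1 fell by 0.25.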
